A study of Mus musculus with 30 samples.

Results

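Cyclin-dependent kinase inhibitors and Gadd45 genes were followed over 5 times in cultures of mouse extraocular muscle, which moves the eyeball. The group held 9 genes, taken as every probe set whose platform gene symbol was Cdkn1a, Cdkn1b, Cdkn1c, Cdkn2c, Cdkn2d, Rb1, Gadd45a, Gadd45b or Gadd45g alone. These rules gave 14 probe sets among 45265 in the series, 13 on the A arrays and 1, for Rb1, on the B arrays, and 9 genes among 18194. Total RNA was hybridised at 0, 4, 12, 24 and 48 h to a pair of Affymetrix array types, A and B, with 3 arrays per time on each type. The labels name no genotype, strain, age or treatment, and leave unstated the event timed from 0 h and the origin of the replicates (separate cultures or not), as well as any link between an A and a B array of like number. The p-values below thus cover array-to-array spread alone, possibly technical in part. On the B type, 0 h replicate 1 is titled extraocular muscle but names leg muscle as its source, and it enters the values given for the B arrays, those of Rb1 and of 7 genes of the pathway lists (Cdkn3, E2f2, E2f7, Tfdp2, Foxo4, Gins2 and Tyms), none of which passed. That array also enters the scores of the B arrays within times and the B array correlations given below.

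A muscle precursor leaves the cell cycle before it fuses into a fibre. Cip/Kip inhibitors (Cdkn1a, Cdkn1b and Cdkn1c) bind several cyclin-kinase complexes, whereas Ink4 inhibitors (Cdkn2c and Cdkn2d) bind the kinases that partner D-type cyclins. Both act upstream of the retinoblastoma protein Rb1, which in its unphosphorylated form holds E2F factors and so restrains DNA synthesis genes. Gadd45 proteins are small stress-induced proteins that bind PCNA, CDK1 and the stress pathway kinase MAP3K4, and Cdkn1a and Gadd45a are textbook targets of p53.

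Each value is a deposited linear intensity, scaled array by array, so each change is relative to the rest of its array, and fewer cells of a type cannot be told apart from less RNA per cell. Levels of different probe sets are not set against each other. Changes are log2 changes of intensity + 16 from limma, with their standard error (SE) and a p adjusted by Benjamini and Hochberg over all 13577 A array probe sets tested, or over all 13507 tested on the B arrays for those 7 genes. A probe set was tested where its mean over the 15 arrays lay above the 40th percentile. That held for 12 of the 14 member probe sets, covering all 9 genes.

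The 3 Gadd45 genes code for closely related proteins, and of these only Gadd45a passed the test at 48 h, so the 250 bases before the start site of each are shown, from RefSeq on GRCm38.p6. Capitals mark matches, on either strand, to 8 short motifs. These were TATAAA for the TATA box, CCAAT for the box of that name, GGGCGG for the GC box, CAGCTG for an E-box, TGANTCA for an AP-1 site, TGACGTCA for a cyclic AMP element, TGATGNAAT for an ATF4 composite site and GTAAACA for a FOXO site. The Gadd45a window is chr6:67037408-67037657 on the minus strand, that of Gadd45b chr10:80929841-80930090 on the plus strand and that of Gadd45g chr13:51846425-51846674 on the plus strand.
Gadd45a: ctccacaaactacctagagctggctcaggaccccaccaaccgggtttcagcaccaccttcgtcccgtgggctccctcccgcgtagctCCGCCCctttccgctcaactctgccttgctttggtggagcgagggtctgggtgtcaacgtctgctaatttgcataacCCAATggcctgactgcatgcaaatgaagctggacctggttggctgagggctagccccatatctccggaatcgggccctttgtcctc
Gadd45b: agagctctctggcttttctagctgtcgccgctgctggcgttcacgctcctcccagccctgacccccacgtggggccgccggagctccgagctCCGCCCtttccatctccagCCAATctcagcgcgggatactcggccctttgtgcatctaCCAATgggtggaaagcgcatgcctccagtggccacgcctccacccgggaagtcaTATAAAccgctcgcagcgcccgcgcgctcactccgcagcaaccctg
Gadd45g: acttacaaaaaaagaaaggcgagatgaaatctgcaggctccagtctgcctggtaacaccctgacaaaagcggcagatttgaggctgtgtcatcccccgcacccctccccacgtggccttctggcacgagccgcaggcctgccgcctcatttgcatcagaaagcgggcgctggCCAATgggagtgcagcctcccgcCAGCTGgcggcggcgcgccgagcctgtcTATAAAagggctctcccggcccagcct

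The Gadd45a window held a CCAAT box from 86 to 82 bases before the start site and a GC box, on the other strand, from 163 to 158 bases before it. In Gadd45b a TATA box lay from 46 to 41 bases before the start site, with CCAAT boxes from 139 to 135 and from 100 to 96 and a GC box on the other strand from 158 to 153. In Gadd45g a TATA box lay from 27 to 22 bases before the start site, a CCAAT box from 78 to 74 and an E-box from 55 to 50. No hits of these motifs overlapped in the 3 windows. Of 32851 RefSeq windows of this length, 12.4% held a TATA box, 33.8% a CCAAT box, 32.7% a GC box and 13% this E-box, and the AP-1, cyclic AMP, ATF4 composite and FOXO letters were in 6.75%, 1.55%, 0.816% and 3.17%. None of the last 4 was among the letters of the 3 windows, which says nothing of whether those factors act there. Windows were found for 7 of the 9 genes, and none was used for Cdkn1c or Rb1.

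Across the whole group, Gadd45a was the only gene to pass in the fit of all 15 A arrays, and it rose at 48 h. Against 0 h, 0 of 12 member probe sets passed at 4 h, 0 at 12 h, 0 at 24 h and 1 at 48 h in limma, where the share of all A array probe sets called was 0.0295%, 0.368%, 5.56% and 6.7%. The called share that was higher at 48 h was 4.2%. At an unadjusted p under 0.05 there were 2, 2, 4 and 1 of 12, against 6.02%, 12.8%, 19.6% and 19.7% of all. No member probe set passed between neighbouring times either, where 0.295% of all were called at 12 h against 4 h, 0.0884% at 24 h against 12 h and 0.626% at 48 h against 24 h. At an unadjusted p under 0.05 the member counts were 0, 0 and 1, against 11.5%, 7.09% and 11.4% of all. In limma's F-test over the 5 times, which called 7.59% of all A array probe sets, 0 of 12 passed.

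Most member changes were above 0 without passing. The median log2 change of the 12 probe sets was 0.15 at 4 h, 0.32 at 12 h, 0.41 at 24 h and 0.36 at 48 h, with 9, 12, 11 and 11 of them positive. Over all A array probe sets tested the medians were 0.0087, 0.0013, -0.012 and 0.019. These 4 comparisons share the same 0 h arrays. The values also depend on 3 A arrays that stand apart, described next, and with those left out the medians were 0.16, 0.35, 0.33 and 0.097, with 10, 11, 10 and 8 of 12 positive.

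**Figure D1:**
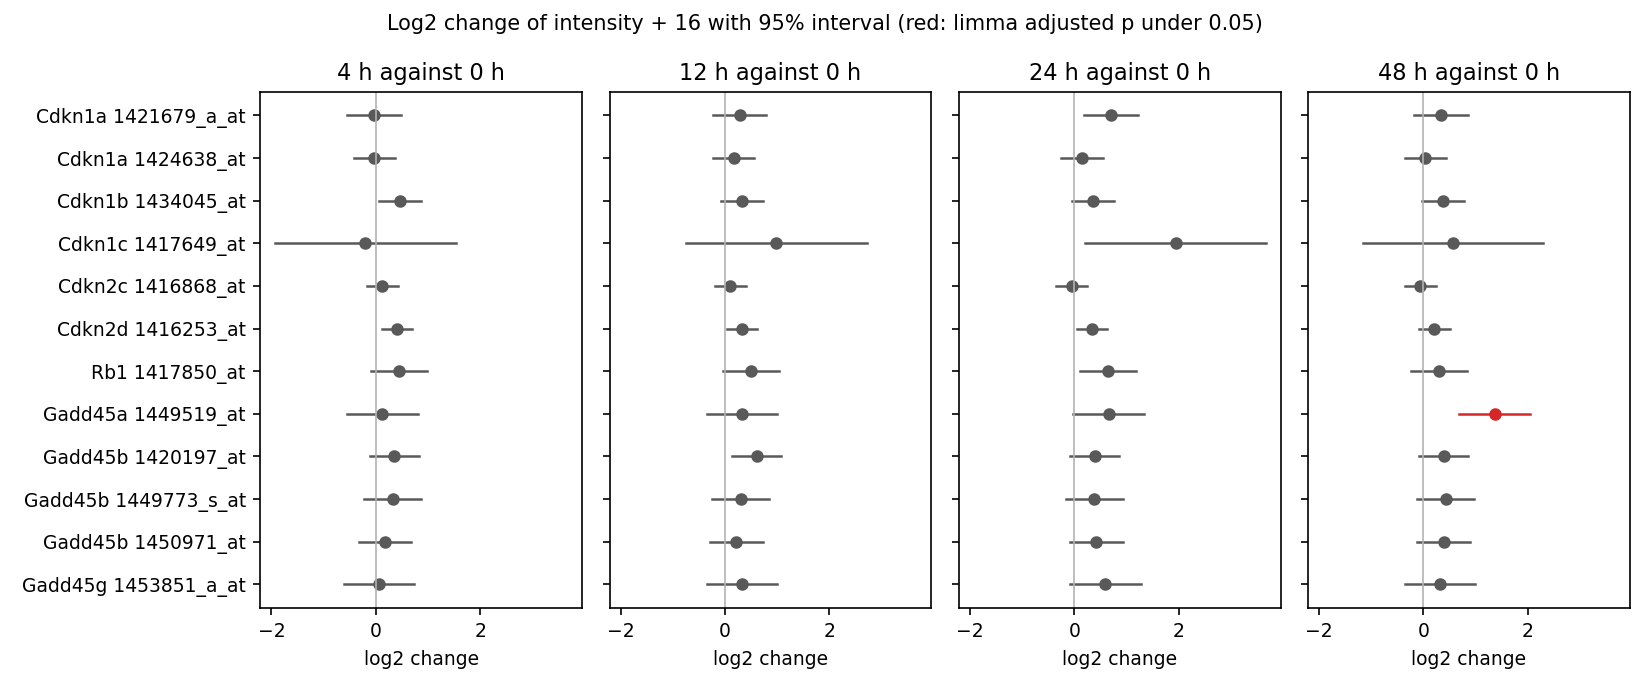
Log2 change of intensity + 16 against 0 h for the 12 tested member probe sets at 4, 12, 24 and 48 h, with 95% intervals from limma; red marks an adjusted p under 0.05. Only Gadd45a at 48 h is red, and the intervals of Cdkn1c are the widest, from 0.21 to 3.67 at 24 h.

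Within times, 3 of the A arrays differed from their neighbours: 0 h replicate 3, 4 h replicate 2 and 12 h replicate 3. On the main axis of deviation from the time means, computed without the members and holding 26.4% of that deviation, their scores were 0.478, 0.321 and 0.411, and no other A array exceeded 0.151. Scores sum to 0 within a time, and 0 h replicate 2 and 12 h replicate 2 had scores of -0.41 and -0.40. On 100 probe sets present on both types, the B arrays of the same time and number were also the highest of their time. Their B scores were 0.428, 0.547 and 0.285. Every time has a highest array, and 24 h replicate 2 was that array on both types, at 0.151 (A) and 0.264 (B). At 48 h the highest array differed between the types. In all 3 A arrays that stand apart, 7 of the 12 member probe sets were the lowest of their time, against 1529 of all 13577, or 11.3%. Those 7 were both Cdkn1a sets, Cdkn1c, Rb1, Gadd45a, the main Gadd45b set and Gadd45g. Of 6 myogenic factors tested, 5 were below the mean of the other arrays of their time in each of the 3 arrays, with median log2 differences of -0.65, -0.70 and -0.44. DNA synthesis genes went the other way there, with 3, 0 and 2 of 20 on the A arrays below that mean. These arrays were picked after the data were seen, and what sets them apart was not tested.

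**Figure D2:**
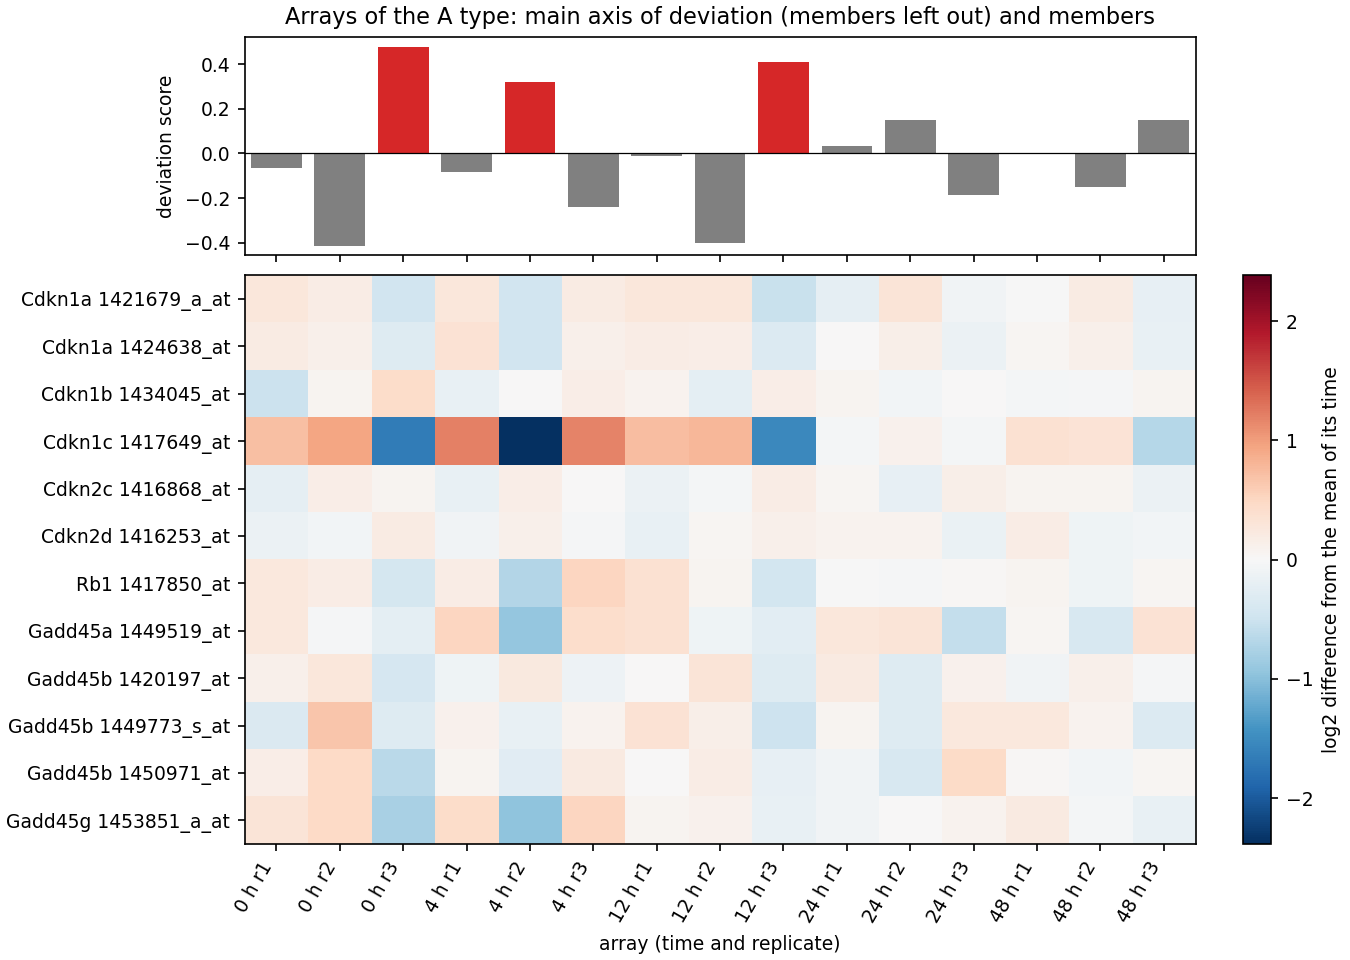
Top, score of each A array on the main axis of deviation from its time mean, with 0 h replicate 3, 4 h replicate 2 and 12 h replicate 3 in red; bottom, log2 difference of each tested member probe set from the mean of its time. Cdkn1c has the deepest blue in the same 3 arrays, while Cdkn1b, Cdkn2c and Cdkn2d are not low there.

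Cdkn1a encodes the inhibitor Cip1, which p53 and MyoD are both known to induce. Its main probe set, 1424638_at, measured 9197, 8733 and 6461 at 0 h, 10061, 5712 and 8521 at 4 h, 10200, 10063 and 7152 at 12 h, 8895, 9805 and 8033 at 24 h, and 8567, 9031 and 7280 at 48 h. It was bright in every array, in the top of the A type at percentile 99.0, and its times overlapped throughout. Its changes against 0 h lay between -0.03 at 4 h and 0.17 ± 0.19 at 12 h (adjusted p = 0.76 in limma). At 48 h the 95% interval ran from -0.36 to 0.44, so a change of the size seen for Gadd45a lay outside it. The other probe set, 1421679_a_at, measured 1667, 1552 and 997 at 0 h and 1920, 2774 and 2105 at 24 h, which did not overlap. That difference, 0.70 ± 0.24, did not pass (limma adjusted p = 0.11), and the main set gave 0.14 ± 0.19 for the same comparison, so the 2 sets differ in size.

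Cdkn1b encodes Kip1, an inhibitor regulated largely through its degradation. Its tested probe set, 1434045_at, measured 208, 316 and 415 at 0 h, 373, 428 and 476 at 4 h, and 387, 391 and 417 at 48 h. The 0 h values were the most spread, and their range overlapped that of every later time. The changes were 0.47 ± 0.19 at 4 h (limma adjusted p = 0.781) and 0.33, 0.36 and 0.38 at 12, 24 and 48 h, none past the threshold. Without the 3 arrays that stand apart they were larger, at 0.68, 0.47, 0.58 and 0.60, and again none passed (limma adjusted p = 0.0621 at 48 h). The 0 h array left out there, replicate 3, had the highest 0 h value, 415. A dimmer Cdkn1b set, 1419497_at, was not tested, with time means from 35.3 ± 7.91 at 0 h to 64.5 ± 5.82 at 48 h (SD, n = 3).

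Cdkn1c encodes Kip2, an imprinted inhibitor that is known for its rise as myoblasts leave the cycle. Its probe set, 1417649_at, had the widest range of the group, from 252 to 6619 over the 15 arrays, a ratio of 26.3. The values were 2635, 3052 and 491 at 0 h, 3211, 252 and 3137 at 4 h, and 5291, 5513 and 1077 at 12 h. They were 5925, 6619 and 5912 at 24 h, and 3023, 2945 and 1469 at 48 h. At each of the 3 early times a single array was far below the others, which measured 5.80, 12.6 and 5.02 times as much, and these were the 3 arrays that stand apart. At 24 h all 3 arrays lay above every array of every other time.

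In the fit of all arrays none of these differences passed. Mean intensity was 2059 ± 1374 (SD, n = 3) at 0 h, 6152 ± 404 at 24 h and 2479 ± 876 at 48 h. The change at 24 h against 0 h was 1.94 ± 0.82 (limma adjusted p = 0.196), that at 48 h against 24 h was -1.38 ± 0.82 (adjusted p = 0.563), and that at 12 h against 0 h was 0.99 ± 0.82 (adjusted p = 0.66). With the 3 arrays left out, in a fit of 12 arrays with 2 each at 0, 4 and 12 h, Cdkn1c rose at 24 h by 1.11 ± 0.22 (limma adjusted p = 0.00817) and fell by 1.38 on the log2 scale from 24 h to 48 h (SE 0.20, adjusted p = 0.00212), where 5.72% and 2.1% of all A array probe sets were called. The same fit gave 0.93 ± 0.25 at 12 h against 0 h (limma adjusted p = 0.0645) and 0.19 ± 0.22 at 24 h against 12 h (adjusted p = 0.861). It gave -0.27 ± 0.22 at 48 h against 0 h. Using only the arrays of 24 h and 48 h, the fall between them passed too (adjusted p = 0.0142), where 0.899% of all were called. The 3 arrays were also the lowest Cdkn1c arrays of their times, so part of the smaller SE follows from leaving them out.

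Muscle genes moved with some of these values. The summed intensity of 8 skeletal muscle markers (Des, Acta1, Actn2, Myh3, Ttn, Ckm, Tnnt3 and Chrna1), all above the filter, ran from 36366 to 43671 at 0 h, from 39048 to 55557 at 24 h and from 41654 to 47346 at 48 h, and 8 of 8 were below the others' mean in 12 h replicate 3, 7 of 8 in 4 h replicate 2 and 5 of 8 in 0 h replicate 3, with median log2 differences of -0.63, -0.53 and -0.10. The sum of these 8 markers ran from 30737 to 47836 at 4 h and from 37601 to 57535 at 12 h. Unlike Cdkn1c, it overlapped between 24 h and every other time. The part of these markers in the Cdkn1c values was not tested. Of the marker lists of other cells, 4 of 6 genes of smooth muscle and pericytes, 3 of 4 of Schwann cells and neurons, 2 of 5 of macrophages, 1 of 5 of endothelium and 0 of 2 of adipocytes were above the filter. The summed intensity of the Schwann cell and neuron genes was lower at 24 h (370 to 509) than at 0 h (600 to 660) and 48 h (526 to 592), opposite to Cdkn1c, with the Schwann cell marker S100b from 7.8 to 49.2. That of the smooth muscle and pericyte genes was higher at 24 h (17395 to 18846) than at 48 h (14396 to 17332). At 0 h it ran from 11852 to 18139, which overlapped 24 h. Of these genes Acta2 ran from 8523 to 16727, and the smooth muscle markers Myh11 and Cnn1 from 3.1 to 29.1 and from 6 to 36.6. Their part was likewise not tested. The genes whose log2 values followed Cdkn1c most closely over the 15 A arrays were Chrng, a subunit of the fetal acetylcholine receptor (Pearson r = 0.970), Creld1 (0.962) and Tead4 (0.958), looked up after the values were seen. Without the 3 arrays these r values were 0.901, 0.835 and 0.781, and all points share their arrays.

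**Figure D3:**
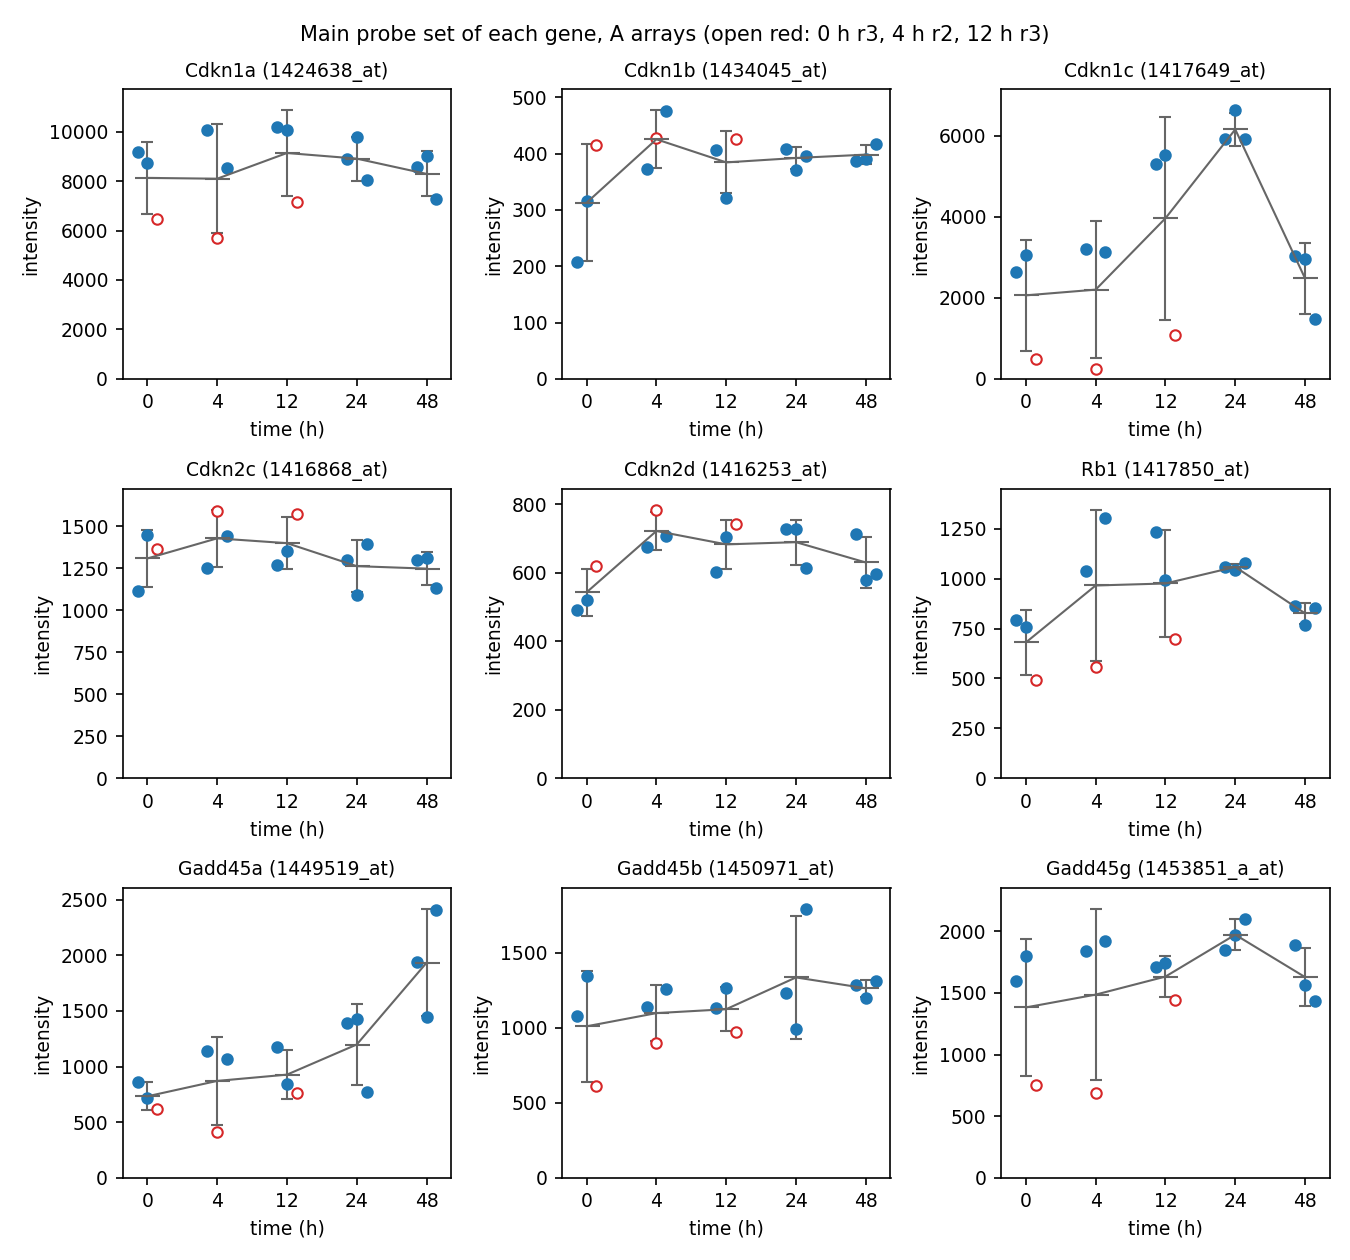
Intensity of the main probe set of each of the 9 genes in each A array at 0, 4, 12, 24 and 48 h (points), with the mean and SD of 3 arrays per time in grey; open red points are the 3 arrays that stand apart. Gadd45a is highest at 48 h, Cdkn1c is highest at 24 h, and Cdkn2c stays between 1091 and 1590.

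Cdkn2c (Ink4c), an inhibitor known to accumulate as muscle cells differentiate, had the smallest ratio of highest to lowest array among the members, 1.46. Its probe set, 1416868_at, measured 1116, 1445 and 1362 at 0 h, 1301, 1091 and 1393 at 24 h, and 1300, 1308 and 1134 at 48 h. All times overlapped, and the changes against 0 h ran from -0.06 ± 0.14 at 48 h (limma adjusted p = 0.855) to 0.13 ± 0.14 at 4 h. At 48 h the 95% interval was -0.36 to 0.23.

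Cdkn2d (Ink4d, probe set 1416253_at) measured 490, 519 and 620 at 0 h and 676, 784 and 707 at 4 h, with no overlap. The difference, 0.40 ± 0.14, did not pass (limma adjusted p = 0.744), and 6.12% of all A array probe sets were higher at 4 h without overlap. The changes at 12, 24 and 48 h were 0.32, 0.34 and 0.21, each ± 0.14, again not past the threshold. Neither Ink4 gene was low in the 3 arrays that stand apart. The Ink4 genes outside the group were dim, as Cdkn2a ran from 4.8 to 63.8 and Cdkn2b from 4.6 to 33.9, below the filter.

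Rb1 (1417850_at) measured 792, 756 and 493 at 0 h, 1038, 557 and 1303 at 4 h, 1234, 994 and 699 at 12 h, 1057, 1043 and 1076 at 24 h, and 861, 766 and 852 at 48 h. The 24 h arrays lay close together, above those of 0 h and of 48 h without overlap. The change at 24 h was 0.66 ± 0.25 (limma adjusted p = 0.155) and that at 48 h against 24 h was -0.35 ± 0.25 (adjusted p = 0.655). Without the 3 arrays Rb1 passed the F-test (adjusted p = 0.0361, with 10% of all A array probe sets called), while the change at 24 h, 0.44 ± 0.14, did not pass (adjusted p = 0.0814). The Rb1 probe set on the B arrays ran from 7.2 to 30.3 and was not tested.

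Gadd45a rose late. Its probe set, 1449519_at, measured 866, 716 and 616 at 0 h, 1136, 413 and 1065 at 4 h, 1176, 843 and 763 at 12 h, 1391, 1430 and 774 at 24 h, and 1943, 1449 and 2407 at 48 h. All 3 arrays of 48 h were above every array of the other times, though 48 h replicate 2 was only just above 24 h replicate 2. The mean went from 733 ± 126 (SD, n = 3) at 0 h to 1933 ± 479 at 48 h, a log2 change of 1.36 ± 0.32 (limma adjusted p = 0.0147). The changes at 4, 12 and 24 h were 0.13, 0.32 and 0.66, each ± 0.32, and did not pass, nor did the step from 24 h to 48 h (0.70 ± 0.32, adjusted p = 0.411). The F-test over time gave an adjusted p of 0.0501.

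The Gadd45a rise at 48 h kept its direction when any single array was left out, with changes from 1.19 to 1.55, but its call was lost without 0 h replicate 3 (limma adjusted p = 0.0526), without 48 h replicate 1 (adjusted p = 0.0535) and without 48 h replicate 3 (adjusted p = 0.0753). With the 3 arrays that stand apart left out it was 1.25 ± 0.25 (adjusted p = 0.00566), where 7.36% of all A array probe sets were called. In that fit the Gadd45a changes at 4, 12 and 24 h were 0.47, 0.33 and 0.54. None of them passed (limma adjusted p = 0.785, 0.598 and 0.248). Of 6 fibroblast markers only Col3a1 was above the filter, from 2179 to 3912. Their summed intensity ran from 2421 to 2917 at 0 h, from 3243 to 4016 at 12 h, from 3545 to 4217 at 24 h and from 3789 to 4203 at 48 h. Like Gadd45a it was higher at 48 h than at 0 h. Unlike Gadd45a, it overlapped between 24 h and 48 h. Decorin, a defining fibroblast marker, ran from 3.9 to 95.6. The part of these cells in the Gadd45a rise was not tested.

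Gadd45b and Gadd45g, the other genes of the family, did not pass at any time. The main Gadd45b set, 1450971_at, measured 1074, 1341 and 611 at 0 h and 1281, 1197 and 1308 at 48 h, which overlapped (0.39 ± 0.24, limma adjusted p = 0.397). Its highest value, 1787, was that of 24 h replicate 3, beside 1228 and 988 in the other arrays of that time. The other Gadd45b sets gave 0.43 ± 0.26 (1449773_s_at) and 0.39 ± 0.22 (1420197_at) at 48 h, none past the threshold. Without the 3 arrays that stand apart, of which 0 h replicate 3 bears on this comparison, the changes were 0.070 for the main set, 0.27 and 0.19.

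Gadd45g (1453851_a_at) measured 1595, 1796 and 754 at 0 h, 1843, 690 and 1925 at 4 h, 1713, 1741 and 1443 at 12 h, 1850, 1969 and 2096 at 24 h, and 1888, 1564 and 1431 at 48 h. The 24 h arrays were above those of 0 h without overlap (0.60 ± 0.32, limma adjusted p = 0.323). Without the 3 arrays the change at 24 h was 0.22 ± 0.13 and that at 48 h was -0.065 ± 0.13. At 24 h against 0 h this held for 4 of the 12 member probe sets (Cdkn1c, Rb1, Gadd45g and a Cdkn1a set), beside 11.5% of all. At 48 h against 0 h it held for 2, Gadd45a and the dim Gadd45b set, beside 13.5% of all. From 24 h to 48 h Gadd45a alone was higher without overlap, beside 10.7% of all, and Cdkn1c and Rb1 were lower, beside 7.85%.

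Because the members share arrays, the difference between a pair could be taken within each array, for 5 pairs picked after their values were seen. The log2 difference of Gadd45a minus Gadd45b was 0.97 higher at 48 h than at 0 h, that of Gadd45a minus Gadd45g 1.05 higher, and that of Gadd45a minus Cdkn1a 1.32 higher. From 24 h to 48 h, Cdkn1c minus Cdkn1a went down by -1.27 and Cdkn1c minus Cdkn1b by -1.40. In each case the 3 arrays of one time lay apart from those of the other, and the two-sided exact permutation p was 0.1 (0.1 after adjustment over the 5), the smallest that 3 against 3 arrays can give, so none could pass 0.05.

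The genes of the surrounding pathways did not all move as a block. Of 22 E2F-regulated DNA synthesis genes tested, 8 fell at 48 h and 0 rose, with a median log2 change of -0.53. They included Mcm7 of the replicative helicase (-0.78 ± 0.14, limma adjusted p = 0.0018), the ribonucleotide reductase subunit Rrm2 (-0.78 ± 0.14) and Pcna, the sliding clamp that Cip1 and Gadd45 proteins bind (-0.52 ± 0.10, or -0.33 with quantile normalization). The count was 11 with median scaling and 5 without the 3 arrays, and the same arrays were high for these genes. At 24 h 7 of 22 fell, or 4 with median scaling. Of all 13577 A array probe sets tested, 317 were called lower at 24 h and 339 at 48 h. With median scaling these counts were 241 and 461, and without the 3 arrays the count at 48 h was 414. Of 20 mitosis genes 1, the checkpoint kinase Bub1b, fell at 48 h (-0.62 ± 0.15), with a median of -0.35, and did not pass in 1 of 10 other settings or in 5 of 15 runs without an array.

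Among 11 cyclins and cyclin-dependent kinases, Ccnd2 rose at 48 h (1.57 ± 0.21, from 356 ± 25.1 to 1093 ± 116), while Ccne1 (-0.99 ± 0.22) and Cdk1 (-0.53 ± 0.15) fell. Another D-type cyclin, Ccnd1, fell at 24 h (-0.62 ± 0.17) and measured -0.38 ± 0.17 at 48 h, where it did not pass, nor at 24 h with median scaling. The Cdk1 call was lost in 4 of 10 other settings and in 8 of 15 runs without an array, and that of Ccne1 in 0 and 3. Of 10 E2F and DP factors 1, the repressor E2f8, fell at 48 h (-0.48 ± 0.14), a call lost in 4 of 10 other settings and in 10 of 15 runs without an array. At 24 h E2f6 rose (0.54 ± 0.15), though not with median scaling, and 0 of 3 other inhibitors and pocket proteins tested passed, with 0 at an unadjusted p under 0.05. Of 9 ubiquitin ligase parts that act on Cip/Kip proteins, 0 passed in limma at any time against 0 h. At 48 h 3 had an unadjusted p under 0.05, beside 19.7% of all A array probe sets.

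Of 14 tested genes of p53 and its targets other than the members, 5 rose at 48 h and 0 fell (median 0.27), whereas at 24 h Pmaip1 rose, Zmat3 fell (a call lost with median scaling and with quantile normalization) and the median was -0.11, with 5 of 14 positive. Sesn2 (2.07 ± 0.24), Pmaip1 (1.14 ± 0.22) and Bbc3 (0.80 ± 0.16) led, beside Gadd45a at 1.36 and the main Cdkn1a set at 0.04 in the same comparison. Several of these, Sesn2 among them, are also known targets of ATF4. All 11 of the tested ATF4 and CHOP stress genes rose at 48 h (median 2.22) and 7 of 11 at 24 h (median 0.77), with Trib3, Ddit3 and Cth at 4.09, 3.14 and 3.14 at 48 h. Of all 13577 A array probe sets tested, 438 were called higher at 24 h and 570 at 48 h. All pathway lists were drawn up with earlier results of these samples known, so the direction of none is independent evidence.

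Of 8 tested kinases in the stress pathways that Gadd45 proteins bind into, 1 passed at 48 h, Map2k3, which fell (-0.84 ± 0.12, limma adjusted p = 0.000239), and 0 rose. Of 18 transcription factors known to act on Cip/Kip and Ink4 genes, Id1, Id2 and Id3 fell and Klf4, which is known to induce Cdkn1a, rose (1.91 ± 0.22). Id2 (-2.50 ± 0.25) and Id3 (-2.22 ± 0.17) had the larger falls. Of 6 myogenic factors Mef2c rose (0.76 ± 0.21) and Myod1 fell (-0.73 ± 0.18), while Pax7 measured -0.27 ± 0.18. The Mef2c call was lost in 3 of 10 other settings, median scaling among them, and in 5 of 15 runs without an array, and that of Myod1 in 0 and 4. At 4 h and at 12 h none of these lists had a member past the threshold against 0 h.

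**Figure D4:**
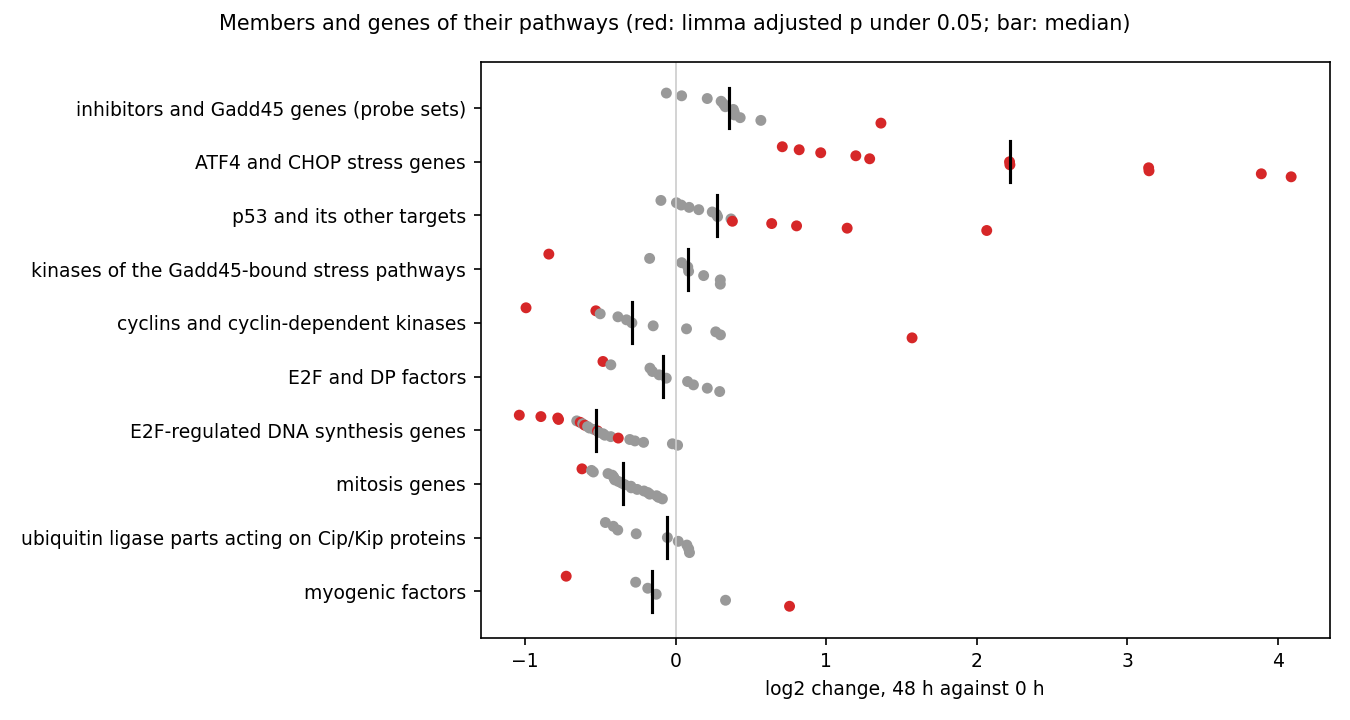
Log2 change at 48 h against 0 h of the 12 member probe sets and of the tested genes of 9 pathway lists; red marks a limma adjusted p under 0.05 and the bar the median. The median of the members is 0.36, that of the ATF4 and CHOP stress genes 2.22 and that of the DNA synthesis genes -0.53.

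The genes whose log2 values followed Gadd45a most closely over the 15 A arrays were Stk17b, a kinase linked to apoptosis (Pearson r = 0.902), Nfil3, a basic leucine zipper factor (0.901), and Cyb5r1 (0.900), again looked up after the values were seen. Without the 3 arrays these were 0.808, 0.857 and 0.864, and other genes then led.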

How the data were processed

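The members and the gene lists were chosen with earlier results of these data known. Per the labels, total RNA was hybridised by a standard Affymetrix protocol; which software, background correction and summary method it used is not given in the sources used here. The authors deposited a linear intensity for each probe set, and the 2% trimmed mean was 500.2 in every A column and 500.1 in every B column, so the authors had scaled each array. No more scaling was done. Precision is limited by having 3 arrays per time. The mean correlation of an array with the others of its time and type, across probe sets, was 0.967 to 0.981 (A) and 0.896 to 0.922 (B). No columns were identical.

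Symbols came from the platform annotation. The log2 of intensity + 16 was fitted over the 15 arrays of a type, 1 mean per time, with limma 3.58.1 in R 4.3.3 (lmFit, eBayes with trend; Benjamini-Hochberg within a comparison; threshold 0.05). Control probe sets (64 per type) and means under the 40th percentile (101 on A, 199.6 on B) were left out, leaving 13577 and 13507. The pseudocount understates changes of dim probe sets. The script was tested on simulated data. All member probe sets are named. A gene's main probe set has the highest mean on the A arrays. Of each pathway list up to 3 genes with the largest absolute moderated statistic at 48 h are named, 1 probe set each, and for each member past the F-test the 3 genes most like it, which named none; other names were chosen after values were seen. Alternatives were median scaling, quantile normalization, pseudocounts of 1 and 64, no filter or one at the 60th percentile, no trend, only the times compared, the replicate number as a block, each array left out and, added after seeing the data, 3 A arrays left out together.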

Additional observations from a re-analysis of the deposited data

How the results depend on the processing

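Over the 10 other settings, the Gadd45a rise at 48 h against 0 h stayed past the threshold in 10 of 10 (log2 changes from 1.25 to 1.38), and over 15 removals of a single A array in 12, so the count of member probe sets called there ran from 0 to 1. The fit of all 15 A arrays called 909 of 13577 in that comparison. No value of a called probe set reversed. With the 3 A arrays that stand apart left out, a choice made after seeing the data, 1 member probe set passed at 24 h against 0 h and 1 at 48 h against 24 h, both Cdkn1c, and 3 over time. The shares of all A array probe sets called in that fit were 5.72%, 2.1% and 10%. With only the times compared 1 passed at 48 h against 24 h, where 0.899% of all were called. Over time, where 0 passed, 1 did with a pseudocount of 64, beside 1041 of all 13577 A array probe sets. With a filter at the 60th percentile 1 did, beside 886 of all 9051. Leaving out single arrays gave 0 to 1, beside 1030 of 13577 in the fit of all 15 A arrays. The replicate block gave 1 over time, beside 934 of 13577, and 1 at 48 h against 0 h, beside 886 of 13577. The deviations of same-numbered A arrays had a median correlation of -0.0016, from -0.36 to 0.42, with 10 of 30 pairs over 0.1. Of 15 A arrays, 7 were closest to one of their own number. Whether arrays of like number share an origin is not stated in the labels and was not tested. Fitted across member probe sets and settings, 2087 log2 changes kept their direction where called and their side of the threshold, 3 came to pass and 3 no longer did.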
